A study of Mus musculus with 24 samples.

Results

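The genes described here are 28 genes of cholesterol biosynthesis and of its control by SREBP-2, measured in mouse cerebellum after loss of Derlin-1 or Derlin-2. Derlins sit in the membrane of the endoplasmic reticulum (ER) and help to pull misfolded proteins out of the ER for degradation. The genes were picked by name, as enzymes from acetyl-CoA to cholesterol, as parts of the SREBP-2 machinery, or as sterol handling proteins, and each was read on its brightest probe. They were chosen with earlier results of these data known. Of the 28 genes, 27 passed the filter on dim probes, out of 16935 genes tested. No probe of these arrays was matched to Acat2, which joins acetyl-CoA units ahead of Hmgcs1. All 27 measured genes were well above background on 24 of 24 arrays except Ggps1, which lacked a value on 1 array where its spot was set aside as an outlier. Other enzymes of the pathway are not analysed here, apart from a list of related genes given further below.

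Total RNA of the cerebellum was hybridised to 24 single-colour Agilent arrays, 12 groups of 2, from mice of the C57BL/6 background killed at day 28 after birth. Knockout (KO) mice were Derlin-1 flox/flox or Derlin-2 flox/flox animals carrying Cre recombinase under the nestin promoter, which is active in neural precursors, and controls were flox/flox mice of the same line. No group with Cre alone is analysed here, so effects of Cre and of Derlin loss cannot be told apart, and a nestin-driven Cre does not act in microglia, which arise outside the neural lineage. Mice were given either water as vehicle or the chemical chaperone 4-phenylbutyrate (4PBA) at 200 mg/kg, injected into the abdomen daily from day 14 to day 28. The Derlin-2 line and a numbered Derlin-1 series each had control vehicle, KO vehicle, control 4PBA and KO 4PBA arrays. A lettered Derlin-1 series had control, KO, control 4PBA and KO 4PBA arrays; its arrays without 4PBA name no vehicle and are called untreated. Each series lay on a slide of its own with 8 arrays, and on each slide genotype and treatment followed the position on the slide, so position and group cannot be told apart. The labels do not say whether the 2 arrays of a group came from separate animals, so p-values measure only the spread between these arrays. A level is the log2 intensity after subtraction of that array's 75th percentile and is compared within a gene only, and a change is KO minus control on the log2 scale. Every adjusted p is limma's, two-sided, adjusted over all genes tested, and "called" means that it was under 0.05.

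Cells make cholesterol from acetyl-CoA through mevalonate, isoprenoids, squalene and lanosterol. In the brain, which is largely closed to cholesterol from the blood, local synthesis supplies neurons, glia and myelin. SREBP-2 is made as a membrane protein of the ER: Scap escorts it to the Golgi when ER cholesterol is low, the proteases encoded by Mbtps1 and Mbtps2 release its active part there, and Insig proteins hold Scap back in the ER when sterols are plentiful. The released part enters the nucleus and raises transcription of most enzymes of the pathway together with the factors NF-Y and Sp1.

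Promoters are shown because so many of these enzymes moved together. RefSeq (GRCm38.p6) windows from 250 bases before to 50 after the transcription start were at hand for 24 of the 28 genes. These genes had 30 windows, since 4 genes had several. Searched on both strands, the NF-Y motif CCAAT was in 20 of the 30 windows, against 37.4% of all 32851 windows, and the Sp1 motif GGGCGG in 24, against 35.7%. By gene, 20 of 24 had a window with CCAAT and 21 one with GGGCGG. The sterol response element spelt TCACNCCAC was present in the window of Hmgcs1 alone, against 1.24% of all windows. The shorter TCACNCCA, added after the windows had been read and contained in the longer motif, was present in Hmgcs1, Msmo1 and Srebf2, against 4.36%. Of the 13 genes called below, 10 had a window and all 10 held CCAAT; of the measured genes not called, 13 had a window and 10 held it. A match is a string of letters in a window, not a measured binding site. The 150 bases upstream of the start follow, 5′ to 3′, for 5 called enzymes and for Scap, which was not called and has no CCAAT there. Capitals mark CCAAT or its reverse complement ATTGG, and, in Hmgcs1, TCACCCCAC.
Hmgcs1 (chr13:119690201-119690350, plus strand): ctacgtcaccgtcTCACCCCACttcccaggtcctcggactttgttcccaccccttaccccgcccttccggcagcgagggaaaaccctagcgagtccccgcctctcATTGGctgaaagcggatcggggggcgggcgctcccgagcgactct
Idi1 (chr13:8885456-8885605, plus strand): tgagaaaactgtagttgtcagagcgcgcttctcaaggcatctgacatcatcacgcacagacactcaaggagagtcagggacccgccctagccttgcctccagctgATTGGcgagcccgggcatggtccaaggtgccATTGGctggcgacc
Cyp51 (chr5:4104698-4104847, minus strand): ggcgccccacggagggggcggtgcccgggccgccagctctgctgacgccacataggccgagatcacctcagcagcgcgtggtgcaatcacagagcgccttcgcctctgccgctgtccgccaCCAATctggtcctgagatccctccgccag
Tm7sf2 (chr19:6067851-6068000, minus strand): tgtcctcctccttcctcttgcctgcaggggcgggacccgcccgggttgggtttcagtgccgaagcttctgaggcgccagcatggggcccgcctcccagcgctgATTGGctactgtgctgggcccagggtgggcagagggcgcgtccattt
Msmo1 (chr8:64733579-64733728, minus strand): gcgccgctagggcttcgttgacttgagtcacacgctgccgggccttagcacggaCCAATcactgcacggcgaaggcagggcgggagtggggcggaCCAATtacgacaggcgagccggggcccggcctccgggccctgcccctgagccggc
Scap (chr9:110333138-110333287, plus strand): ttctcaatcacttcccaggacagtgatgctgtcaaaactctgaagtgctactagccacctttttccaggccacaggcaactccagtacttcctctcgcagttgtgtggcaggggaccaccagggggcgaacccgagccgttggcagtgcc

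The share of spots well above background ran from 57.7% to 68.4% over the arrays, and 8 of 8 granule neuron and 8 of 8 Purkinje cell markers, which define the cerebellum, were well above background on every array. Arrays that stood apart are listed ahead of the comparisons, the last of them by its difference from controls in the sterol genes themselves. Derlin-1 KO and control arrays overlapped on the Derl1 probe, and since its place relative to the deleted part of the gene was not determined, it does not check the labels. In the untreated lettered KO it read 0.14 on array a and 0.84 on array b, against 1.22 and 0.84 in the controls. In the Derlin-2 series, Derl2 on the vehicle array labelled KO 1 was 1.72, that of a control, while the other 3 Derlin-2 KO arrays read 0.18 to 0.48. Derl3 on that vehicle array was -1.85, against -3.01 and -2.75 in the vehicle controls. It was -0.61 on vehicle KO 2 and -1.93 and -1.96 in KO with 4PBA. Derl2 and Derl3 thus disagreed on the label of vehicle KO 1. In the lettered series, Derl3 on array b labelled KO with 4PBA was -2.27, that of a control, while the other 3 lettered KO arrays read -0.09 to 0.37. Among the sterol genes the untreated lettered KO array a stood furthest from its slide's controls, with a median difference over the genes of -0.67, against -0.26 on array b.

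In the cerebellum of Derlin-1 KO mice without 4PBA, most measured transcripts of the cholesterol pathway were lower than in controls, and called genes were found from Hmgcs1 to Dhcr7. None of the 6 genes of the SREBP-2 machinery, also lower, was called, and the enzymes were not tested against them. Averaged over the numbered and lettered series, 25 of 27 genes were lower, with a median change of -0.30 against -0.01 over all genes. Of these, 13 were called, all lower, where 5.37% of all genes were called lower and 10.6% in either direction. They included 12 of the 19 measured enzymes and Stard4. In 14 of the 27 genes every KO array lay below every control array of its slide, as in 12.4% of all genes. On 1 slide alone this was so for 15 genes in the numbered series (21.8% of all genes) and 18 in the lettered series (25.1%), so groups that are apart on 1 slide are common. Within the lettered series 10 genes were called, all lower (1.84% of all genes were called lower, 3.54% in either direction), with a median of -0.46. Within the numbered series 22 of 27 were lower with a median of -0.15 and none was called (0.0118% of all genes); 5 had an unadjusted p under 0.05 and the smallest adjusted p, that of Tm7sf2, was 0.087. The difference of the KO change between the series, lettered minus numbered, was called for no sterol gene (0.0059% of all genes); 23 of 27 differences were negative, with a median of -0.25, and 3 had an unadjusted p under 0.05. That median was -0.10 without lettered untreated KO array a, -0.38 without KO array b and -0.15 without lettered untreated control a. The median of the numbered series was -0.24 without its vehicle control 2.

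**Figure D1:**
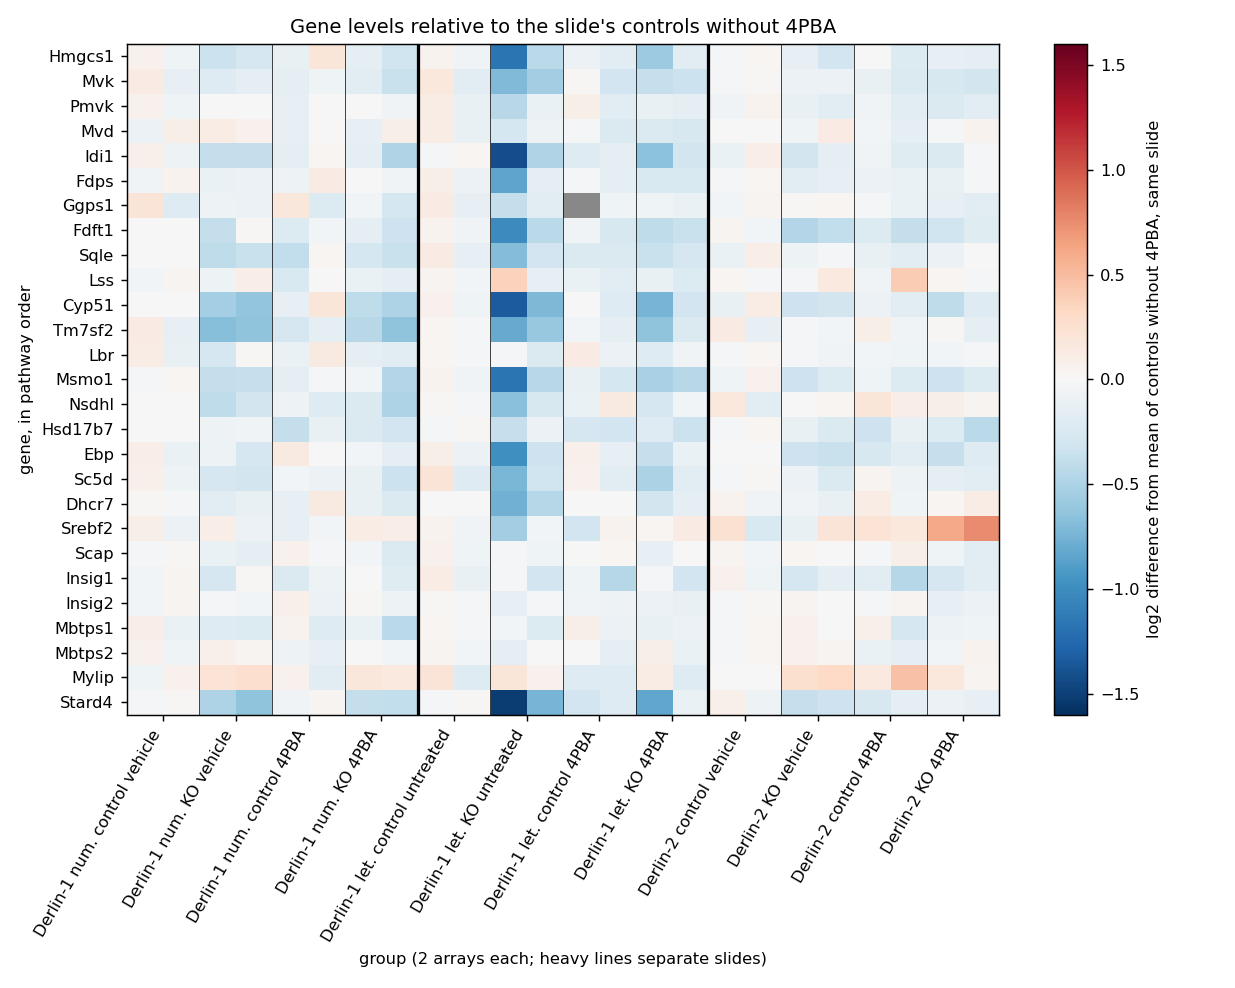
Heat map of the log2 difference of each of 27 genes (rows, in pathway order) from the mean of the controls without 4PBA on the same slide, for 24 arrays (columns, 2 per group); blue is lower, red is higher and grey is a missing value. The column of the untreated lettered KO array a is the bluest, with a median of -0.67. The rows of Scap, Lbr, Insig1 and Mbtps1 are the palest in it, and that of Srebf2 is at -0.56.

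The entry of the pathway was represented by Hmgcs1, which condenses acetyl-CoA and acetoacetyl-CoA into the precursor of mevalonate. Its level was 4.80 and 4.65 in the numbered vehicle controls and 4.39 and 4.46 in the numbered vehicle KO, and 4.62 and 4.50 in the lettered untreated controls and 3.39 and 4.13 in the lettered untreated KO. Groups did not overlap on either slide, and lettered KO array a was the lowest of all 24 arrays. The averaged change was -0.55 (SE 0.14, adjusted p 0.0219), a 1.47-fold reduction, and without that array it was -0.37 (adjusted p 0.0849), no longer called.

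Between mevalonate and the isoprenoids, 6 genes were measured, all 6 were lower and 2 were called. Mevalonate kinase, Mvk, which adds the first phosphate to mevalonate, read 3.13 and 2.87 in numbered controls, 2.80 and 2.86 in numbered KO, 2.99 and 2.65 in lettered controls and 2.12 and 2.26 in lettered KO arrays. Its groups were apart on both slides, by very little on the numbered one, and the averaged change was -0.40 (SE 0.09, adjusted p 0.0134). Idi1, which isomerises the building block of all isoprenoids, read 2.64 and 2.49 in numbered controls and 2.18 and 2.18 in numbered KO, and 2.09 and 2.15 in lettered controls and 0.70 and 1.64 in lettered KO arrays. Both series showed lower KO arrays, with lettered array a far under array b, and the averaged change was -0.66 (SE 0.16, adjusted p 0.0178). Fdps, which builds farnesyl diphosphate, was not called at -0.30 (SE 0.11, adjusted p 0.095), although the lettered series alone gave -0.50. Without lettered KO array a these values of Fdps were -0.13 and -0.16. Pmvk and Mvd, the kinase and decarboxylase that follow Mvk, and Ggps1, which leads off to protein prenylation, gave -0.14, -0.05 and -0.18 and were not called. The sign of Mvd turned when any of 3 arrays was left out.

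From farnesyl diphosphate to lanosterol, 2 of 3 enzymes were called. Fdft1, squalene synthase and the first enzyme committed to sterols, read 2.63 and 2.63 in numbered controls, 2.26 and 2.65 in numbered KO, 2.80 and 2.69 in lettered controls and 1.72 and 2.30 in lettered KO arrays. On the numbered slide KO array 2 lay at the level of the controls, and on the lettered slide the groups were apart. The averaged change of Fdft1 was -0.45 (SE 0.12, adjusted p 0.0242). Sqle, squalene epoxidase, read 2.98 and 3.0 in numbered controls, 2.59 and 2.63 in numbered KO, 2.86 and 2.60 in lettered controls and 2.04 and 2.42 in lettered KO arrays, groups that did not overlap in either series, and its averaged change was -0.44 (SE 0.10, adjusted p 0.0148). Lss, lanosterol synthase, which closes the sterol ring system, gave 0.07 (SE 0.11, adjusted p 0.742) on its brightest probe and was the only enzyme measured higher. Its other 2 probes gave -0.14 and -0.20, so the probes of Lss disagreed in sign.

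The steps from lanosterol to cholesterol held the most called genes, 7 of 9, and all 9 were lower. Cyp51, lanosterol demethylase, read 1.60 and 1.62 in numbered controls and 1.07 and 0.98 in numbered KO, and 1.90 and 1.76 in lettered controls and 0.49 and 1.11 in lettered KO arrays. Every KO array lay below both controls of its slide, array a of the lettered KO furthest, and the averaged change was -0.81 (SE 0.13, adjusted p 0.00324), 1.75-fold lower. Tm7sf2, the sterol reductase that acts on the product of Cyp51, read 1.83 and 1.58, then 1.02 and 1.06 in numbered controls and KO, and 1.92 and 1.85, then 1.07 and 1.28 in lettered controls and KO. Its reduction was alike in the numbered series, -0.66, and the lettered series, -0.71, with a difference of -0.05 (95% confidence interval -0.48 to 0.39), and the averaged change was -0.69 (SE 0.10, adjusted p 0.00242). Lbr, an inner nuclear membrane protein that carries out the same reduction, gave -0.13 (SE 0.08, adjusted p 0.353) and was not called.

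Msmo1 and Nsdhl remove the methyl groups of lanosterol. Msmo1 read 3.40 and 3.46 in numbered controls, 3.04 and 3.06 in numbered KO, 3.40 and 3.30 in lettered controls and 2.18 and 2.90 in lettered KO arrays, with an averaged change of -0.59 (SE 0.13, adjusted p 0.0114). Nsdhl read -0.48 and -0.49 in numbered controls, -0.90 and -0.78 in numbered KO, -0.93 and -0.98 in lettered controls and -1.62 and -1.21 in lettered KO arrays, with an averaged change of -0.41 (SE 0.10, adjusted p 0.0224). In both genes every KO array lay below every control of its slide. Hsd17b7, the reductase that works beside them, gave -0.15 (SE 0.08, adjusted p 0.25) and was not called.

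The last enzymes isomerise, desaturate and reduce the sterol ring. Ebp, the sterol isomerase, read 4.11 and 3.91 in numbered controls, 3.93 and 3.75 in numbered KO, 3.97 and 3.79 in lettered controls and 2.90 and 3.54 in lettered KO arrays. The numbered groups of Ebp overlapped, and its averaged change of -0.41 (SE 0.12, adjusted p 0.039) was no longer called in 16 of 34 alternative settings, among them that without lettered KO array a, where it was -0.25 (adjusted p 0.154). Sc5d, the desaturase, read 2.21 and 2.05 in numbered controls, 1.86 and 1.84 in numbered KO, 2.26 and 1.83 in lettered controls and 1.31 and 1.72 in lettered KO arrays, with an averaged change of -0.40 (SE 0.11, adjusted p 0.0361). KO arrays of Sc5d lay below controls on both slides, though lettered array b only narrowly. Dhcr7, the reductase that yields cholesterol in a branch of the pathway, read -0.74 and -0.78 in numbered controls, -0.93 and -0.89 in numbered KO, -0.29 and -0.31 in lettered controls and -1.07 and -0.75 in lettered KO arrays. KO arrays of Dhcr7 were below controls in both series, by a small step on the numbered slide, and the averaged change was -0.38 (SE 0.08, adjusted p 0.00928).

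Beyond the enzymes, Stard4 and Mylip had changes of opposite sign. Stard4, a carrier of cholesterol between membranes whose gene is a known SREBP-2 target, read 1.0 and 1.03 in numbered controls and 0.52 and 0.37 in numbered KO, and 0.41 and 0.46 in lettered controls and -1.08 and -0.30 in lettered KO arrays. Control arrays agreed to within 0.05 on each slide and KO arrays were below them in both series. Its averaged change, -0.85 (SE 0.15, adjusted p 0.00499), was 1.80-fold and the largest among the 27 genes, with -0.57 for the numbered series and -1.13 for the lettered, the latter -0.74 (adjusted p 0.235) without lettered KO array a. Mylip encodes a ubiquitin ligase that sends lipoprotein receptors to degradation and is known as a target of the sterol-sensing LXR receptors. It gave 0.19 (SE 0.10, adjusted p 0.259), the highest change of the list, and was not called.

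**Figure D2:**
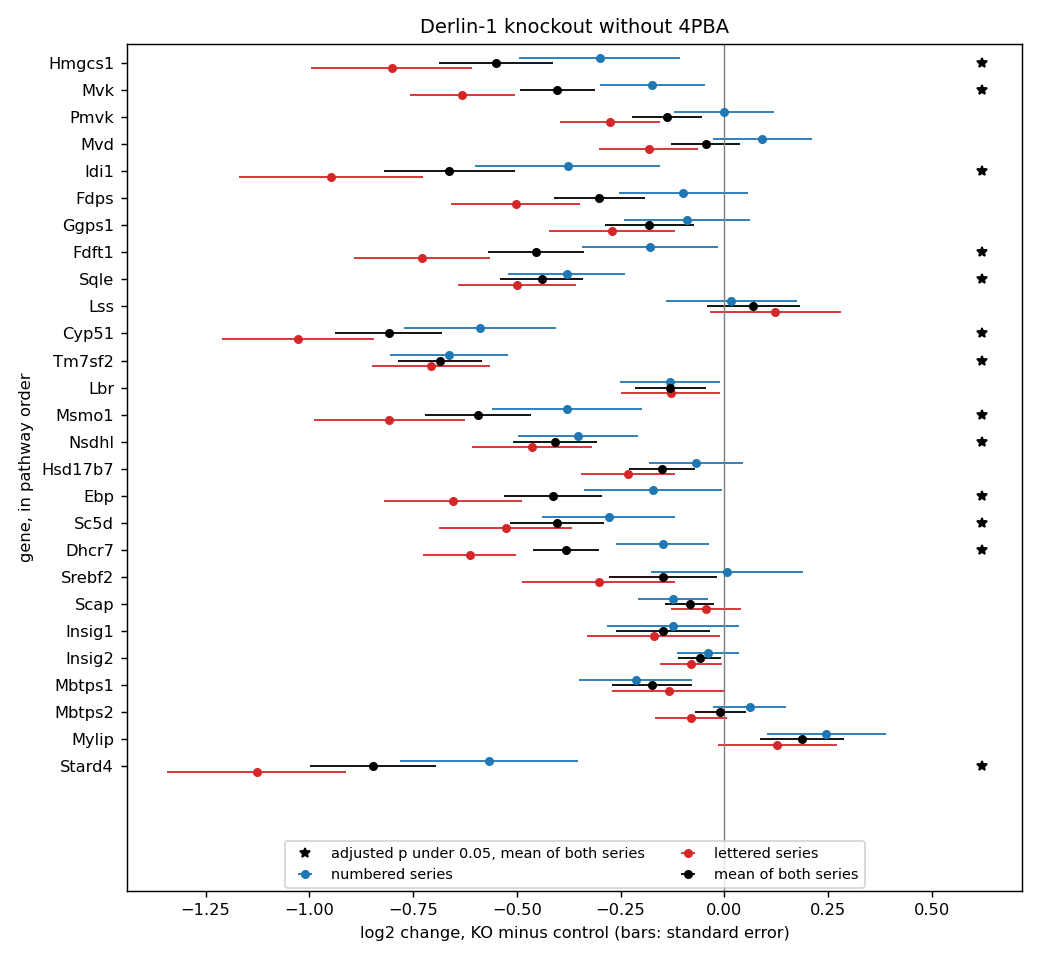
Log2 change of each gene (KO minus control, horizontal axis, with standard errors) in Derlin-1 KO mice without 4PBA for the numbered series, the lettered series and their mean; stars mark an adjusted p under 0.05 for the mean. Stard4 and Cyp51 lie furthest left for the mean, Stard4 at -0.85 and Cyp51 at -0.81, and the genes from Srebf2 to Mbtps2 lie near 0.

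Genes that encode the SREBP-2 machinery were all 6 measured lower, but none was called, with a median of -0.12. Srebf2, which encodes SREBP-2, read -1.69 and -1.89 in numbered controls, -1.68 and -1.88 in numbered KO, -1.24 and -1.36 in lettered controls and -1.85 and -1.34 in lettered KO arrays. The groups overlapped on both slides, and the averaged change was -0.15 (SE 0.13, adjusted p 0.506), or -0.02 without lettered KO array a. Scap, the escort, read 3.24 and 3.27 in numbered controls, 3.15 and 3.11 in numbered KO, 3.42 and 3.29 in lettered controls and 3.34 and 3.28 in lettered KO arrays, with a change of -0.08 (SE 0.06, adjusted p 0.4). Numbered KO arrays of Scap were below controls and lettered ones overlapped them.

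Insig1, the sterol-dependent anchor of Scap and itself a known SREBP-2 target, read -1.99 and -1.91 in numbered controls, -2.22 and -1.93 in numbered KO, -1.67 and -1.91 in lettered controls and -1.82 and -2.09 in lettered KO arrays. Its groups overlapped on both slides, with a change of -0.15 (SE 0.11, adjusted p 0.439). Insig2, the second anchor, read 2.14 and 2.23 in numbered controls, 2.15 and 2.14 in numbered KO, 2.18 and 2.14 in lettered controls and 2.03 and 2.13 in lettered KO arrays, with a change of -0.06 (SE 0.05, adjusted p 0.505), and had the smallest spread of the 27 genes over all arrays, 0.25. Its numbered groups overlapped and its lettered KO arrays were below controls by a narrow margin. Mbtps1, the first protease to cut SREBP-2, read 3.52 and 3.30 in numbered controls, 3.20 and 3.19 in numbered KO, 3.19 and 3.12 in lettered controls and 3.11 and 2.93 in lettered KO arrays. All 4 KO arrays of Mbtps1 lay below the controls of their slide, and the change was -0.17 (SE 0.10, adjusted p 0.266). Mbtps2, the second protease, gave -0.01 (SE 0.06, adjusted p 0.938), and its sign turned in 7 of 34 alternative settings.

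Several genes were read by more than 1 probe, and these were compared in a fit of every probe. The second probes of Cyp51, Tm7sf2, Msmo1, Fdft1 and Stard4 changed by -0.66, -0.56, -0.58, -0.53 and -1.14, with adjusted p-values of 0.0418, 0.0086, 0.0286, 0.0148 and 0.0236. Second probes of Mvk and Ebp gave -0.27 and -0.40 and were not called. In all 7 of these genes, each called on its brightest probe, the second probe had the sign of the brightest. Among genes not called, the probes of Lss disagreed, as given above. Values of the other probes of Pmvk, Ggps1, Hsd17b7, Insig2, Mbtps1 and Mbtps2 are not given here.

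How evenly the genes moved was described by the correlation of each gene with the mean of the other measured genes over 24 arrays, after centring on the slide. The arrays share slides and groups, and the value is given as a description. Msmo1 had 0.95, Hmgcs1 0.94, Idi1 0.93, Cyp51 0.92 and Sc5d 0.91, and all 13 called genes had at least 0.77. Fdps, not called, had 0.87 and Pmvk 0.76. Srebf2 had 0.15, Mbtps2 0.14 and Insig1 0.21, while Lss and Mylip ran the other way with -0.36 and -0.49.

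Array a of the untreated lettered KO group weighed on these counts, and the values without it were 6 called genes in place of 13 and a median of -0.22 in place of -0.30. The 6 were Idi1 with -0.43, Cyp51 with -0.65, Tm7sf2 with -0.63, Msmo1 with -0.41, Dhcr7 with -0.30 and Stard4 with -0.65. Besides Hmgcs1 and Ebp, the calls lost were Mvk with -0.37, Fdft1 with -0.31, Sqle with -0.34, Nsdhl with -0.31 and Sc5d with -0.30, with adjusted p-values from 0.0638 to 0.165. Among genes not called, Pmvk moved to -0.05, Hsd17b7 to -0.08 and Lss to -0.05. Without array b of that group the count was 14, with Fdps added. Leaving out numbered control vehicle 1 or lettered untreated control a also left 6 called genes, and leaving out numbered KO vehicle 1 or 2 left 7 or 8. Cyp51, Tm7sf2, Dhcr7 and Stard4 were called in every one of 34 alternative settings. In the lettered series alone the median was -0.26 without array a and -0.67 without array b, and no gene was called without array a or without untreated control a, and 2 without control b.

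Related genes from a list outside the 28, on precursor supply, isoprenoid branches, sterol sensing and degradation, were given the same test: 27 of 27 were measured, 18 were lower and 9 higher, 4 were called lower (5.37% of all genes) and 1 higher (5.26%). Acss2 and Acly, which make cytosolic acetyl-CoA from acetate and citrate, changed by -0.52 (SE 0.12, adjusted p 0.0127) and -0.31 (SE 0.07, adjusted p 0.0151). Tmem97, a sterol-regulated ER membrane protein, changed by -0.40 (SE 0.10, adjusted p 0.0184), and Rdh11, a retinol dehydrogenase, by -0.37 (SE 0.11, adjusted p 0.0436). Srebf1, which encodes the SREBP that mainly drives fatty acid synthesis, went the other way, with 0.70 (SE 0.17, adjusted p 0.0184). The median of the list was -0.06.

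Cell type markers were set beside these changes, since in bulk tissue fewer cells of a type and less RNA per cell cannot be told apart. All markers were well above background on every array; a list's summed level is the log2 of its summed intensities relative to the 75th percentile. Of 10 oligodendrocyte and myelin markers none was called, with a median of -0.12; it was 0.07 for the numbered series and -0.29 for the lettered, where 1 was called lower. Their summed level was 8.37 to 8.46 in numbered controls, 8.43 to 8.52 in numbered KO, 8.21 to 8.51 in lettered controls and 8.02 to 8.27 in lettered KO arrays, so the ranges overlapped on both slides. Of 8 granule neuron markers 4 were called lower, as were 5.37% of all genes, and the list median was -0.32. Their summed level was 8.88 to 8.89 against 8.50 to 8.52 in numbered and 8.47 to 8.51 against 8.15 to 8.17 in lettered controls and KO. Of 10 microglia markers 7 were called higher, as were 5.26% of all genes, and the list median was 1.24. Summed microglia levels were 6.21 to 6.32 against 6.39 to 6.43 in numbered and 5.80 to 5.86 against 6.07 to 6.09 in lettered controls and KO. The mean microglia level was 0.32 and 0.34 against 1.28 and 1.32 in numbered controls and KO. In lettered controls and KO it was 0.59 and 0.35 against 1.56 and 1.32. The part of these lists in the sterol changes was not tested. Of 8 Purkinje cell, 4 oligodendrocyte precursor, 5 choroid plexus and 2 measured red blood cell markers none was called, with medians of -0.06, 0.05, -0.55 and -0.25, and of 8 astrocyte and Bergmann glia markers 1 was called higher, with a median of 0.02. The choroid plexus sum varied most between arrays, from 1.65 to 7.91.

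With 4PBA, Derlin-1 KO mice were compared with controls that also received 4PBA, on other arrays than the comparison without 4PBA. The slides are the same, and the fit estimates the spread from all 24 arrays. Averaged over both series, 23 of 27 genes were lower with a median of -0.15, and none was called (0.0472% of all genes were); 3 had an unadjusted p under 0.05, Cyp51, Tm7sf2 and Dhcr7. All 13 genes called without 4PBA were lower here too, with changes from -0.45 to -0.11. Of the 910 genes of the whole array called lower without 4PBA, 99.1% were also lower with it. In 4 of the 27 genes every KO array lay below every control array of its slide, as in 3.99% of all genes. On 1 slide alone this was so for 10 genes in the numbered series (23.6% of all genes) and 13 in the lettered series (12.1%), Ggps1 among them with a value on 1 control array only. The numbered series had 21 of 27 lower with a median of -0.16 and none called (0.0472% of all genes), and the lettered series 22 of 27 with a median of -0.15 and none called (0.0236%). Without numbered KO 4PBA 2 the median was -0.10 over both series and -0.04 in the numbered series. The lettered median was -0.08 without KO 4PBA a or control 4PBA a. Of the cell type markers, none was called: 10 of 10 oligodendrocyte and myelin markers were lower, with a median of -0.24 and 6 of 10 not overlapping on either slide, 8 of 8 granule neuron markers were lower with a median of -0.23, and 8 of 10 microglia markers were higher with a median of 0.72. The oligodendrocyte sum was 8.32 to 8.62 in numbered controls against 8.33 to 8.38 in KO, and 8.25 to 8.38 in lettered controls against 8.11 to 8.21 in KO. On lettered KO 4PBA array b the mean marker level was 0.33 for microglia and 4.86 for granule neurons, close to the lettered controls with 4PBA, against 1.35 and 4.39 on array a. The part of these markers in the sterol changes was not tested.

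Cyp51 with 4PBA read 1.48 and 1.80 in numbered controls, 1.21 and 1.11 in numbered KO, 1.84 and 1.62 in lettered controls and 1.09 and 1.52 in lettered KO arrays, a change of -0.45 (SE 0.13, adjusted p 0.182). Tm7sf2 read 1.43 and 1.56 in numbered controls, 1.26 and 1.06 in numbered KO, 1.84 and 1.74 in lettered controls and 1.24 and 1.66 in lettered KO arrays, a change of -0.34 (SE 0.10, adjusted p 0.194). In both genes the KO arrays were below the controls of their slide, with the lettered KO array b the nearest to them. That array b, labelled KO with 4PBA, is the one whose Derl3 level went against its label. Without it Cyp51 and Tm7sf2 were called, with -0.56 (adjusted p 0.026) and -0.44 (adjusted p 0.0172), and the median of the 27 genes was -0.16.

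Stard4 read 0.96 and 1.05 in numbered controls, 0.63 and 0.62 in numbered KO, 0.13 and 0.23 in lettered controls and -0.40 and 0.33 in lettered KO arrays with 4PBA. The numbered groups were apart, while lettered KO array a was below and array b above both lettered controls, and the change was -0.30 (SE 0.15, adjusted p 0.434), or -0.48 (SE 0.14, adjusted p 0.0538) without array b. Dhcr7 read -0.89 and -0.62 in numbered controls, -0.88 and -0.99 in numbered KO, -0.30 and -0.29 in lettered controls and -0.59 and -0.46 in lettered KO arrays, a change of -0.21 (SE 0.08, adjusted p 0.291). Its numbered groups overlapped and its lettered groups were apart.

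Among the upstream enzymes, Hmgcs1 read 4.61 and 4.92 in numbered controls, 4.59 and 4.41 in numbered KO, 4.46 and 4.37 in lettered controls and 3.98 and 4.37 in lettered KO arrays with 4PBA. Mvk read 2.85 and 2.93 in numbered controls, 2.82 and 2.64 in numbered KO, 2.84 and 2.51 in lettered controls and 2.45 and 2.47 in lettered KO arrays. Idi1 read 2.40 and 2.60 in numbered controls, 2.40 and 2.08 in numbered KO, 1.92 and 1.97 in lettered controls and 1.46 and 1.82 in lettered KO arrays. Mvk alone of these had KO arrays below controls on both slides; Hmgcs1 did so on the numbered and Idi1 on the lettered slide. The changes of Hmgcs1, Mvk and Idi1 were -0.25, -0.19 and -0.28, none called. Fdft1 read 2.41 and 2.59 in numbered controls, 2.48 and 2.30 in numbered KO, 2.69 and 2.48 in lettered controls and 2.33 and 2.39 in lettered KO arrays. Sqle read 2.59 and 3.02 in numbered controls, 2.71 and 2.63 in numbered KO, 2.50 and 2.50 in lettered controls and 2.37 and 2.46 in lettered KO arrays. Both squalene enzymes had overlapping numbered groups and lower lettered KO arrays, with changes of -0.17 and -0.11.

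Of the later enzymes, Msmo1 read 3.28 and 3.41 in numbered controls, 3.39 and 2.96 in numbered KO, 3.22 and 3.07 in lettered controls and 2.83 and 2.91 in lettered KO arrays with 4PBA. Nsdhl read -0.57 and -0.69 in numbered controls, -0.72 and -0.98 in numbered KO, -1.06 and -0.81 in lettered controls and -1.22 and -1.0 in lettered KO arrays. KO arrays were apart from controls on the lettered slide in Msmo1 and on the numbered slide in Nsdhl, with changes of -0.23 and -0.20. Ebp read 4.15 and 4.02 in numbered controls, 3.96 and 3.87 in numbered KO, 3.96 and 3.75 in lettered controls and 3.50 and 3.78 in lettered KO arrays. Sc5d read 2.09 and 2.03 in numbered controls, 2.01 and 1.79 in numbered KO, 2.11 and 1.88 in lettered controls and 1.54 and 1.88 in lettered KO arrays. Both had lower KO arrays on the numbered slide. On the lettered slide the groups of Ebp overlapped, and KO array b of Sc5d lay level with the lower control, below it by less than the printed digits, with changes of -0.19 and -0.22.

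The SREBP-2 machinery with 4PBA was evenly divided, 3 genes lower and 3 higher. Srebf2 read -1.92 and -1.83 in numbered controls, -1.67 and -1.68 in numbered KO, -1.60 and -1.24 in lettered controls and -1.26 and -1.17 in lettered KO arrays, a change of 0.20 (SE 0.13, adjusted p 0.558). Numbered KO arrays were above controls and lettered groups overlapped; the sign was opposite to that without 4PBA, and neither change was called. Scap read 3.32 and 3.23 in numbered controls, 3.21 and 3.03 in numbered KO, 3.34 and 3.39 in lettered controls and 3.22 and 3.34 in lettered KO arrays. Insig1 read -2.18 and -2.03 in numbered controls, -1.95 and -2.15 in numbered KO, -1.85 and -2.24 in lettered controls and -1.80 and -2.09 in lettered KO arrays. Numbered KO arrays of Scap were again below controls, and those of Insig1 overlapped them on both slides. Insig2 read 2.26 and 2.09 in numbered controls, 2.21 and 2.10 in numbered KO, 2.10 and 2.08 in lettered controls and 2.06 and 2.05 in lettered KO arrays. Mbtps1 read 3.47 and 3.20 in numbered controls, 3.31 and 2.98 in numbered KO, 3.25 and 3.07 in lettered controls and 3.03 and 3.06 in lettered KO arrays. In these genes the lettered KO arrays were below controls and the numbered groups overlapped. Changes of Scap, Insig1, Insig2 and Mbtps1 lay between -0.15 for Mbtps1 and 0.08 for Insig1.

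**Figure D3:**
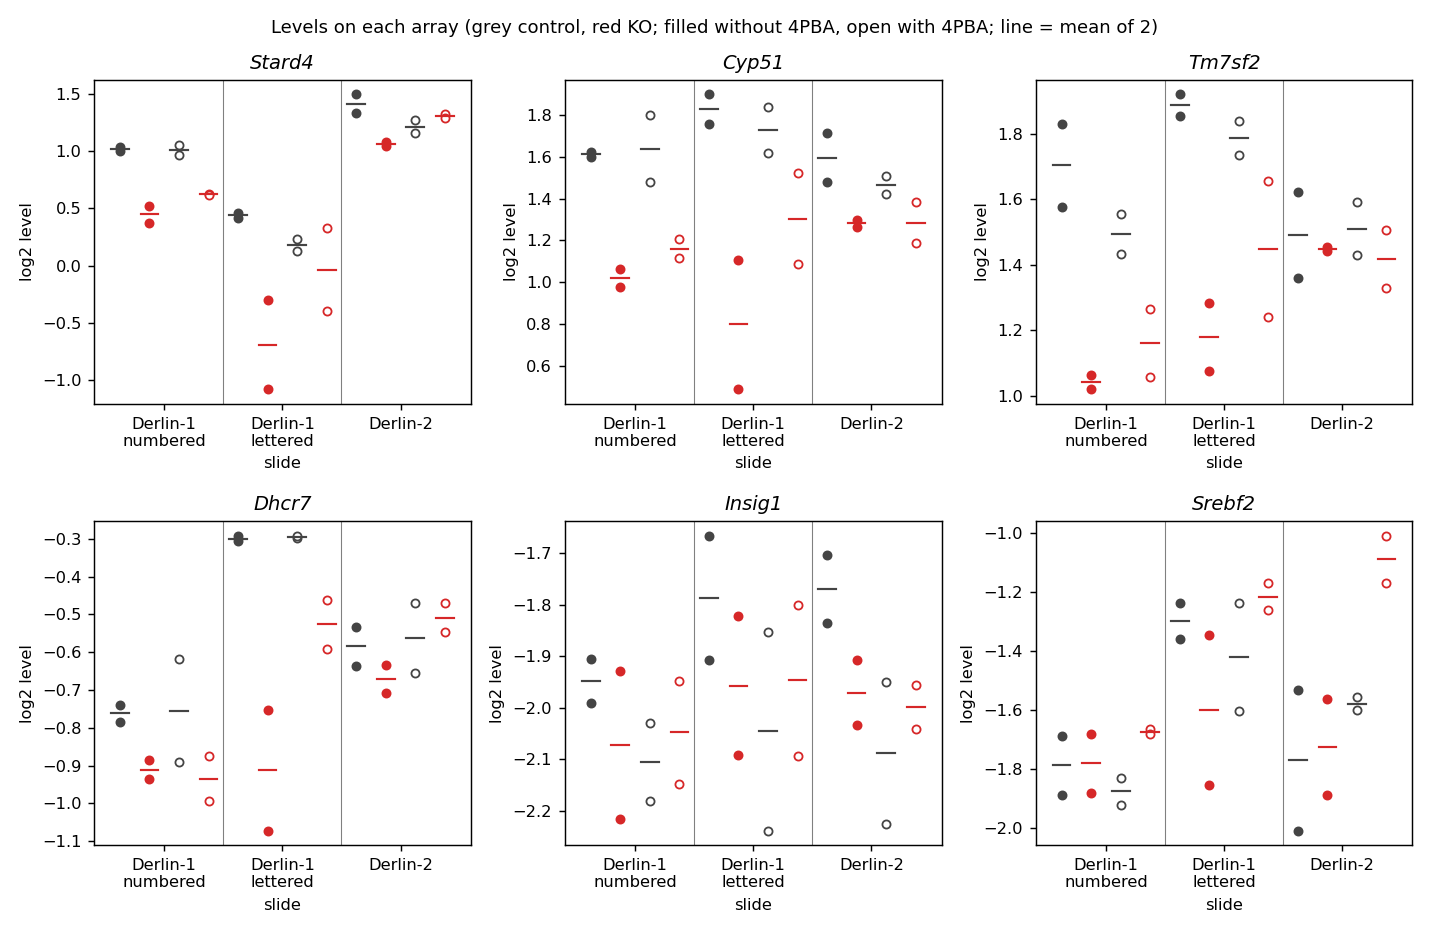
Log2 level of Stard4, Cyp51, Tm7sf2, Dhcr7, Insig1 and Srebf2 on each of 24 arrays, by slide, with a line at the mean of the 2 arrays of a group; control arrays are grey, KO arrays red, and open symbols mark 4PBA. In the first 4 genes the filled red points lie below the filled grey ones on both Derlin-1 slides, and in Insig1 and Srebf2 they overlap.

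Whether the KO change differed with and without 4PBA was tested directly. The difference, with minus without 4PBA, was above 0 in 23 of 27 genes, with a median of 0.19, but none was called (0.0118% of all genes) and 3 had an unadjusted p under 0.05. Without lettered untreated KO array a the median was 0.08. The largest difference was that of Stard4, 0.55 (95% confidence interval 0.09 to 1.01, adjusted p 0.999). Without untreated KO array a it was 0.35 (SE 0.17), and without lettered KO 4PBA array b, whose Derl3 level went against its label, 0.36 (SE 0.18). The difference of Idi1 was 0.38 with all arrays, 0.15 without untreated KO array a and 0.29 without KO 4PBA array b. Within genotypes, 4PBA in Derlin-1 controls gave 23 of 27 lower with a median of -0.09 and none called (0.0295% of all genes), Hsd17b7, with -0.27 (adjusted p 1.0), being the only gene at an unadjusted p under 0.05. In Derlin-1 KO mice 18 of 27 were higher with 4PBA, with a median of 0.12 and none called (0.0354%); Stard4 gave 0.41, Cyp51 0.32 and Dhcr7 0.18, each with an adjusted p of 0.734. Without lettered untreated KO array a the median in KO mice was 0.03, and Stard4 gave 0.22, Cyp51 0.17 and Dhcr7 0.10. Without lettered KO 4PBA array b these genes gave 0.23, 0.21 and 0.15. The KO median was 0.22 without lettered untreated KO array b, and 0.07 without numbered KO vehicle 1 or numbered KO 4PBA 1. The median in controls was -0.03 without lettered untreated control a, -0.06 without numbered control vehicle 1 and -0.05 without lettered control 4PBA b. In KO mice with 4PBA 10 of 10 microglia markers were lower, with a median of -0.40, and 5 of 5 choroid plexus markers higher, with a median of 1.18, none called. The mean microglia level was 1.28 and 1.32 in numbered KO with vehicle and 1.30 and 1.13 with 4PBA. In lettered KO it was 1.56 and 1.32 untreated, and 1.35 on array a and 0.33 on array b with 4PBA. The part of these markers in the sterol values was not tested. These comparisons share arrays with the KO comparisons above.

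In the Derlin-2 line with vehicle, 17 of 27 genes were lower in KO arrays, with a median of -0.09, and none was called (0.118% of all genes); 1 had an unadjusted p under 0.05. That gene was Fdft1, with 2.85 and 2.76 in controls and 2.34 and 2.41 in KO arrays, a change of -0.43 (SE 0.16, adjusted p 0.515). Of the 13 genes called in the Derlin-1 line, 12 were lower here, the exception being Nsdhl with 0.01. Over all genes called lower in the Derlin-1 line, 61.4% were lower in this comparison. When the vehicle KO array 1 with control-like Derl2 was left out, the median was -0.10, and it was -0.10 without KO vehicle 2, with none called in either case. Of 10 oligodendrocyte and myelin markers 7 were lower here, with a median of -0.12 and a sum of 8.22 to 8.36 in controls and 8.28 to 8.33 in KO arrays. Of 8 astrocyte and Bergmann glia markers 6 were lower, with a median of -0.25 and all 6 without overlap (24.8% of all genes were lower without overlap). In microglia 7 of 10 markers were lower, with a median of -0.14. No marker was called, and the part of these lists in the sterol values was not tested.

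With 4PBA in the Derlin-2 line, 16 of 27 genes were lower in KO arrays, with a median of -0.07 and none called (0.136% of all genes). Of the 13 genes called in the Derlin-1 line 9 were lower, against 84.8% of all genes called lower there. Changes of these 13 ranged from -0.18 for Cyp51 to 0.10 for Sqle. The median of the 27 genes lay between -0.07 and -0.00 over 34 alternative settings, with -0.01 without control 4PBA 1, -0.05 without KO 4PBA 1 and -0.03 without KO 4PBA 2. In the same comparison 9 of 10 oligodendrocyte and myelin markers were lower, with a median of -0.35 and a sum of 8.19 to 8.43 in controls and 7.99 to 8.21 in KO arrays. All 5 choroid plexus markers were higher and did not overlap (14.3% of all genes were higher without overlap), with a median of 1.89 and a sum of 4.99 to 6.35 in controls and 7.32 to 7.75 in KO arrays. No marker was called, and the part of these lists in the sterol values was not tested. Purkinje cell sums were 9.24 to 9.29 in controls and 9.10 to 9.20 in KO arrays. Astrocyte and Bergmann glia sums were 7.44 to 7.46 and 7.31 to 7.33, and red blood cell sums 8.15 to 8.36 and 7.36 to 7.68. Sums of granule neurons, microglia and oligodendrocyte precursors overlapped. The part of these sums was not tested either. 4PBA gave 19 of 27 genes lower in Derlin-2 controls, median -0.10 and none called (0.13% of all genes), and 14 of 27 lower in Derlin-2 KO mice, median -0.00 and none called (0.136%). In Derlin-2 controls 5 of 5 choroid plexus markers were lower with 4PBA, with a median of -1.37, none called. The median of the sterol genes in controls was -0.06 without control vehicle 2 and -0.05 without control 4PBA 2. These comparisons share arrays with the KO comparisons of the line.

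Every KO array lay below every control array in 13 of 27 genes with vehicle, as in 24.8% of all genes, and in 7 of 27 with 4PBA, as in 24.6% of all genes. In the Derlin-2 line Stard4 read 1.49 and 1.33 in vehicle controls, 1.04 and 1.08 in vehicle KO, 1.16 and 1.27 in controls with 4PBA and 1.32 and 1.29 in KO arrays with 4PBA. Cyp51 read 1.48 and 1.71 in vehicle controls, 1.27 and 1.30 in vehicle KO, 1.51 and 1.42 in controls with 4PBA and 1.19 and 1.38 in KO arrays with 4PBA. KO arrays of both genes were below controls with vehicle, with changes of -0.35 (SE 0.21, adjusted p 0.739) and -0.31 (SE 0.18, adjusted p 0.719); with 4PBA those of Cyp51 were below and those of Stard4 above. Tm7sf2 read 1.62 and 1.36 in vehicle controls, 1.45 and 1.44 in vehicle KO, 1.59 and 1.43 in controls with 4PBA and 1.51 and 1.33 in KO arrays with 4PBA. Dhcr7 read -0.53 and -0.64 in vehicle controls, -0.63 and -0.71 in vehicle KO, -0.47 and -0.65 in controls with 4PBA and -0.55 and -0.47 in KO arrays with 4PBA. These reductases overlapped between KO and control in both treatments.

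Of the enzymes up to squalene epoxide, Hmgcs1 read 4.60 and 4.66 in vehicle controls, 4.50 and 4.32 in vehicle KO, 4.64 and 4.42 in controls with 4PBA and 4.50 and 4.48 in KO arrays with 4PBA of the Derlin-2 line. Mvk read 3.04 and 3.07 in vehicle controls, 2.96 and 2.96 in vehicle KO, 2.94 and 2.82 in controls with 4PBA and 2.80 and 2.76 in KO arrays with 4PBA. Idi1 read 2.44 and 2.64 in vehicle controls, 2.25 and 2.39 in vehicle KO, 2.49 and 2.35 in controls with 4PBA and 2.31 and 2.52 in KO arrays with 4PBA. Vehicle KO arrays of all 3 were below their controls, and with 4PBA this held for Mvk alone of the 3. Fdft1 read 2.85 and 2.76 in vehicle controls, 2.34 and 2.41 in vehicle KO, 2.59 and 2.42 in controls with 4PBA and 2.49 and 2.61 in KO arrays with 4PBA. Sqle read 2.85 and 3.08 in vehicle controls, 2.88 and 2.94 in vehicle KO, 2.85 and 2.80 in controls with 4PBA and 2.87 and 2.97 in KO arrays with 4PBA. Fdft1 overlapped with 4PBA, while Sqle overlapped with vehicle and had higher KO arrays with 4PBA.

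Of the later enzymes in this line, Msmo1 read 3.52 and 3.65 in vehicle controls, 3.25 and 3.37 in vehicle KO, 3.51 and 3.36 in controls with 4PBA and 3.25 and 3.37 in KO arrays with 4PBA. Nsdhl read -0.39 and -0.72 in vehicle controls, -0.57 and -0.53 in vehicle KO, -0.36 and -0.44 in controls with 4PBA and -0.46 and -0.51 in KO arrays with 4PBA. Groups of Msmo1 were apart with vehicle and overlapped with 4PBA, where the change was -0.13, and those of Nsdhl overlapped with vehicle and were apart with 4PBA, none called. Ebp read 4.19 and 4.18 in vehicle controls, 3.85 and 3.83 in vehicle KO, 3.93 and 4.01 in controls with 4PBA and 3.81 and 3.97 in KO arrays with 4PBA. Sc5d read 2.13 and 2.15 in vehicle controls, 2.04 and 1.91 in vehicle KO, 2.19 and 2.05 in controls with 4PBA and 1.98 and 1.98 in KO arrays with 4PBA. Vehicle KO arrays of both were below controls, and the largest vehicle change of these 4 genes was that of Ebp, -0.34 (SE 0.17, adjusted p 0.644).

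Among the SREBP-2 machinery in the Derlin-2 line, Srebf2 stood out by its KO arrays with 4PBA. Srebf2 read -1.53 and -2.01 in vehicle controls, -1.89 and -1.56 in vehicle KO, -1.56 and -1.60 in controls with 4PBA and -1.17 and -1.01 in KO arrays with 4PBA. KO array 2 with 4PBA was the highest of all 24 arrays, and KO array 1 was level with lettered Derlin-1 KO array b with 4PBA. The KO change with 4PBA was 0.49 (SE 0.18, adjusted p 0.86), and 4PBA within KO mice gave 0.64 (SE 0.18, adjusted p 0.286), so neither passed. Insig1 read -1.70 and -1.84 in vehicle controls, -2.03 and -1.91 in vehicle KO, -1.95 and -2.23 in controls with 4PBA and -2.04 and -1.96 in KO arrays with 4PBA. Insig2 read 2.22 and 2.25 in vehicle controls, 2.28 and 2.24 in vehicle KO, 2.20 and 2.27 in controls with 4PBA and 2.09 and 2.14 in KO arrays with 4PBA. Insig1 was lower in KO arrays with vehicle and overlapped with 4PBA, and Insig2 the reverse. Scap read 3.29 and 3.19 in vehicle controls, 3.27 and 3.24 in vehicle KO, 3.23 and 3.33 in controls with 4PBA and 3.18 and 3.07 in KO arrays with 4PBA. Mbtps1 read 3.38 and 3.44 in vehicle controls, 3.48 and 3.42 in vehicle KO, 3.49 and 3.14 in controls with 4PBA and 3.33 and 3.35 in KO arrays with 4PBA. Mbtps1 overlapped in both treatments and Scap only with vehicle. Changes of these 4 genes lay between -0.20 and 0.09, both of Insig1, over the vehicle and 4PBA comparisons.

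**Figure D4:**
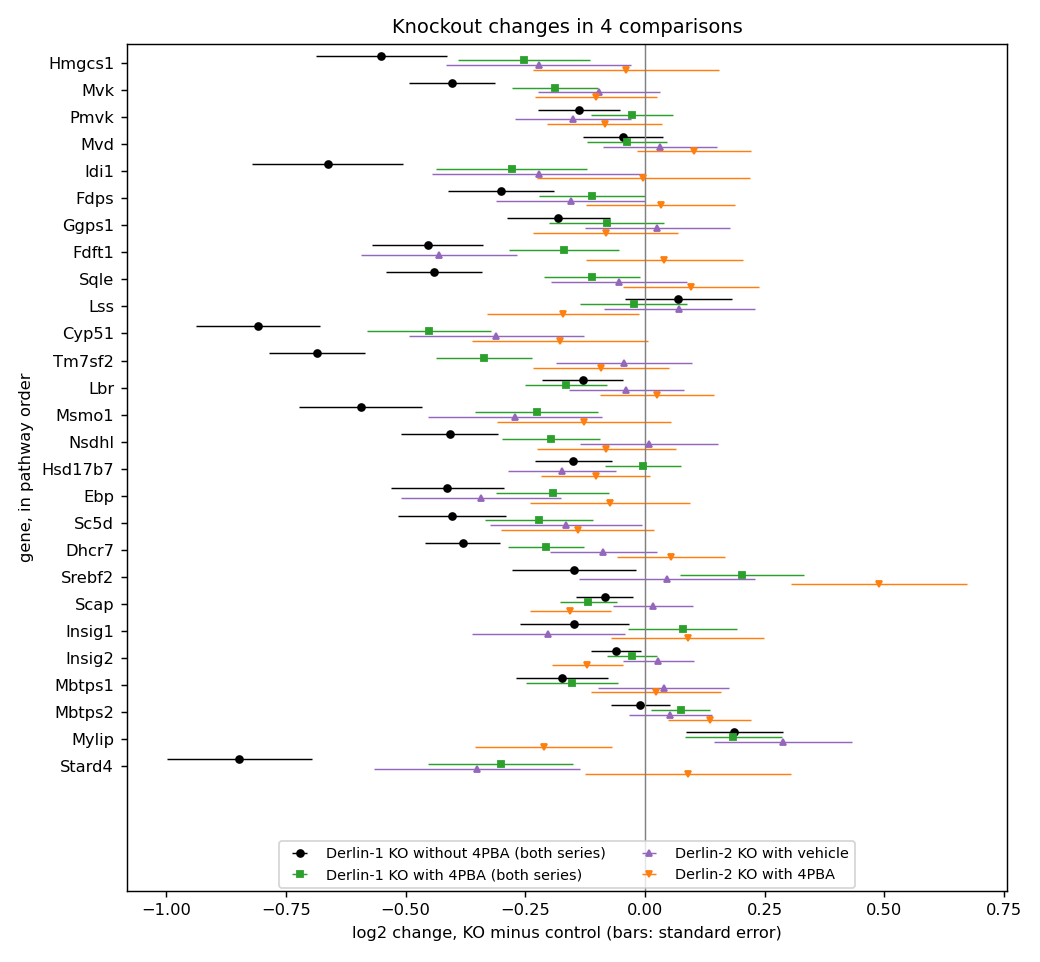
Log2 change of each gene (KO minus control, with standard errors) in the Derlin-1 line without and with 4PBA, each the mean of both series, and in the Derlin-2 line with vehicle and with 4PBA. The black points of the Derlin-1 line without 4PBA lie furthest left for the 13 called genes, with medians over all 27 of -0.30, -0.15, -0.09 and -0.07 in the 4 comparisons.

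The KO change without 4PBA was tested for a difference between the lines, Derlin-1 minus Derlin-2, over separate arrays and slides. The difference was negative for 24 of 27 genes, with a median of -0.19 (-0.12 without Derlin-2 KO vehicle 2 or with quantile normalization, -0.11 with the mean of a gene's probes), and 5 genes had an unadjusted p under 0.05, but none was called (0.065% of all genes). Tm7sf2 had the smallest adjusted p, with -0.64 (95% confidence interval -1.02 to -0.27, adjusted p 0.147). Cyp51 gave -0.50 (-0.98 to -0.02) and Stard4 -0.50 (-1.06 to 0.07). The lower sterol transcripts of the Derlin-1 line were thus not shown to differ from those of the Derlin-2 line. The vehicle KO group of the Derlin-2 line holds an array on which Derl2 was control-like while Derl3 was not.

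**Figure D5:**
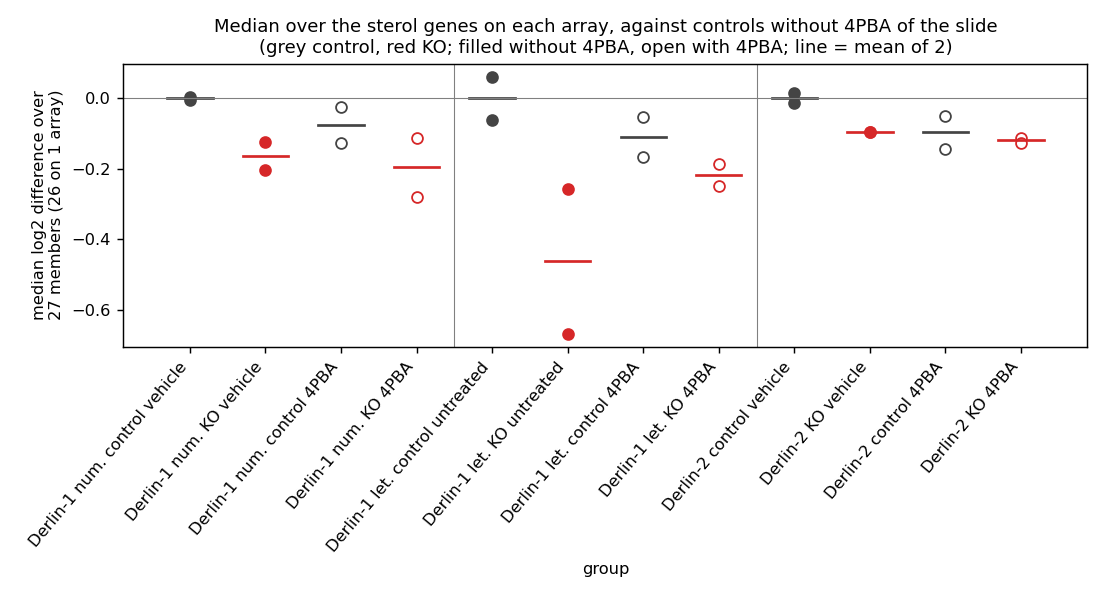
Median log2 difference over the sterol genes from the mean of the slide's controls without 4PBA, for each of 24 arrays by group, with a line at the mean of the 2 arrays. The untreated lettered KO arrays lie at -0.67 and -0.26, the numbered vehicle KO arrays at -0.20 and -0.12, and the Derlin-2 vehicle KO arrays at -0.10 each.

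Single arrays were compared by the median over the sterol genes. Relative to the controls without 4PBA of the same slide, the median was -0.20 and -0.12 on the numbered Derlin-1 KO vehicle arrays, -0.11 and -0.28 on the numbered KO arrays with 4PBA, -0.25 and -0.19 on their lettered counterparts, and -0.13 to -0.10 over the 4 Derlin-2 KO arrays. Controls with 4PBA had -0.13 and -0.02 in the numbered series, -0.05 and -0.17 in the lettered series and -0.05 and -0.14 in the Derlin-2 line, so they overlapped the KO arrays with 4PBA in the numbered series and the Derlin-2 line. The untreated lettered KO array a, at -0.67, was the lowest of the 12 KO arrays, with numbered KO array 2 with 4PBA, at -0.28, the next.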

How the data were processed

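Total RNA was labelled with Cy3 and read as single-colour intensity on Agilent arrays with Feature Extraction 10.7.1.1, per the file headers; the authors deposited background-subtracted processed signals for 59305 spots per array. The deposited series table held the same values as linear intensity (largest difference 1.74e-06 on the log2 scale, over probes with a single spot), and was used for that comparison only. Here each array's log2 intensity was set relative to its 75th percentile (intensity 890 to 1169 before scaling), which assumes that this percentile is stable between groups. Probes were named through their transcripts by RefSeq, and 32994 of 56605 probes had a symbol. The filter kept the 38115 probes that were well above background on 2 of 2 arrays in some group, and the brightest probe stood for each of 16935 genes. limma 3.58.1 (R 4.3.3) fitted 1 mean per group over 24 arrays, with empirical Bayes and Benjamini-Hochberg adjustment over all genes. The script was tested on simulated data. Normexp used median spot and background signals. Genes and lists were chosen with earlier results of these data known. Every array's value is given for members called in a contrast, for Srebf2, Scap, Insig1 and Insig2, and for the largest change in a step without a call, which was Mbtps1. Precision is limited by having 2 arrays a group; the alternatives tried are 10 settings and 24 left-out arrays.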

Additional observations from a re-analysis of the deposited data

How the results depend on the processing

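Averaged over both series, the Derlin-1 KO comparison without 4PBA had 13 called genes; only the arrays of the slides compared gave 4 (Cyp51, Tm7sf2, Dhcr7 and Stard4), and leaving out single arrays gave 6 to 14. In the lettered series alone, with 10 called, no filter on dim probes gave 5, testing every probe gave 5, its own slide alone gave 0, and leaving out single arrays gave 0 to 15. Leaving out single arrays gave 0 to 1 called genes in the numbered series, 0 to 2 in Derlin-1 KO with 4PBA, and 0 to 1 for the difference between the Derlin-1 and Derlin-2 changes. The cause was not tested, except that fits on fewer arrays have fewer residual degrees of freedom. The median change over both series stayed between -0.44 and -0.22 in 34 settings. A replicate block left 13 genes called; same-numbered arrays of different groups correlated from -0.15 to 0.40 in their deviations, above 0.1 in 5 of 6 pairs on the lettered slide, 2 of 6 on the numbered and 0 of 6 on the Derlin-2 slide, so the numbers are not shown to pair the arrays over the series. The fit on only the slides compared was not run for the difference between lines.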
